A study of Mus musculus with 6 samples.

Results

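Transcripts of solute carriers, ABC transporters, ion pumps and ion channels were examined in the ileum of mice with and without HIF-1α overexpression in the intestinal epithelium. The genes were taken by name from the table of genes deposited for the comparison: protein-coding genes whose symbol starts with Slc, Abc, Atp, Kcn, Aqp, Clc, Cacn, Scn, Trpm, Trpv or Trpc followed by a letter or digit. The table held 923 genes, 656 of them protein-coding, and 41 had such a symbol. Slc16a3, Slc2a1, Slc2a5 and Abcc2 were set aside by the rule, which left 37 genes in 15 substrate groups. No gene with a symbol starting with Cacn or Trpc was listed.

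The control group was 3 Hif1α LSL/LSL mice, called flox, which carry the LSL-HIF1 dPA allele without Cre. The overexpression group was 3 Hif1α LSL/LSL;VilERcre littermates, in which a tamoxifen-activated Cre driven by the villin promoter recombines the allele in intestinal epithelial cells. The study treated both genotypes with tamoxifen, on a C57BL/6 background, and the sources used here give neither the age nor the diet of these 6 mice. By the labels each group held 2 males and, as replicate 3, 1 female, whereas the study's text calls these mice male. Polyadenylated RNA of ileum was sequenced without a stated cell fraction, so the values are those of whole tissue, in which fewer cells of a type and less RNA per cell cannot be told apart.

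The ileal epithelium takes up peptides, amino acids, vitamins, nucleosides, bile acids and ions through carriers in its brush border, and passes them to the blood or exports them again through a second set in the basolateral membrane. Solute carriers (Slc) move their substrate down a gradient or couple it to sodium or protons, ABC transporters (Abc) and P-type pumps (Atp) spend ATP, and channels let ions or water pass. HIF-1α is an oxygen-regulated transcription factor that binds DNA with the core letters ACGTG or GCGTG, and its best known targets are glycolytic enzymes and glucose transporters.

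Every listed gene had an unadjusted p under 0.05 in the authors' own test of this contrast, so the list was already selected for a difference. Counts over it describe these genes and are not independent evidence of a difference, and fold changes of genes selected in this way lean high. The spread within groups leans low for the same reason, most of all in genes with small differences. Library totals implied by the deposited FPKM ran from 18918341 to 24905343 fragments. Hif1a itself averaged lower in the libraries labelled overexpression. Its normalized counts (counts divided by the size factor of each library) were 740.5, 1063 and 1185 in flox and 535, 728 and 741 in overexpression, ranges that touch, and its edgeR adjusted p was 1. The sources do not say whether RNA of the inserted allele is counted under Hif1a. The gene therefore does not check the labels, its direction goes against that of the genotype, and the groups are named below as the libraries are labelled. None of 8 epithelial markers was listed, so the tissue could not be checked by them. The lists of smooth muscle, neurons and glia, enteroendocrine cells, T cells, myeloid cells, mast cells, fat, goblet cells, Paneth cells and pancreas also had no listed gene. Markers of other cells that were listed are given here because they bear on whole tissue: Acta1 of skeletal muscle (1 of 6 listed) ran from 137 to 281 normalized counts in flox and from 587 to 950.2 in overexpression, Ms4a1 of B cells from 23.7 to 97.9 and from 6.99 to 19.2, Kdr of endothelium (1 of 3) ran from 403 to 544 and from 517 to 966, Dcn of fibroblasts (1 of 4) from 5119 to 6079 and from 4336 to 4748, and Alas2 of red cells (1 of 3) from 28.2 to 80.8 and from 9.33 to 29.0. Of these, Acta1 passed the test (adjusted p = 0.0493, edgeR). The part of other cells in the results below was not tested.

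The 300-base windows around RefSeq gene starts (250 bases before and 50 after, GRCm38.p6) were available for 31 of the 37 genes. In 18 of them (58.1%) at least 1 window held ACGTG or GCGTG on either strand, against 46.7% of all 27025 genes with a window. By direction of the mean difference these were 5 of 11 genes that averaged higher in overexpression and 13 of 20 that averaged lower. A gene with several windows has more places for a match, and the number of windows per gene was not matched in this comparison. Of all 32851 windows, 43.8% held a match. Matches are letters in a window and not binding sites. The 250 bases before the start are printed for the 3 genes with at least 3 matches in their window and for Scn2b, the gene with the smallest p, which had none. Each is given 5′ to 3′ on the strand of the gene, with capitals for matches on either strand; CACGTG is a pair of overlapping matches, 1 on each strand. The intervals are chr13:74121163-74121412 (plus strand) for Slc9a3, chr2:126876262-126876511 (minus) for Trpm7, chr14:75787038-75787287 (minus) for Slc25a30 and chr9:45117626-45117875 (plus) for Scn2b.
Slc9a3: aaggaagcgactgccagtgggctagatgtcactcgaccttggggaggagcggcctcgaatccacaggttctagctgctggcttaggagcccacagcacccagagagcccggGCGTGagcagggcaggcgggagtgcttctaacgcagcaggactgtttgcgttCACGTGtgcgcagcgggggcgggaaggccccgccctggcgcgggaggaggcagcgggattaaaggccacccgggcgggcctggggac
Trpm7: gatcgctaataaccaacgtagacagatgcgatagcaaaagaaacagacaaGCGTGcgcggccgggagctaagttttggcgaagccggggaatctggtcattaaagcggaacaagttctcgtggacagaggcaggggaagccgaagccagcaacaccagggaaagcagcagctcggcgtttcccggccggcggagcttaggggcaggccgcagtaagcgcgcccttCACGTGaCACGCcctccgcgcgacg
Slc25a30: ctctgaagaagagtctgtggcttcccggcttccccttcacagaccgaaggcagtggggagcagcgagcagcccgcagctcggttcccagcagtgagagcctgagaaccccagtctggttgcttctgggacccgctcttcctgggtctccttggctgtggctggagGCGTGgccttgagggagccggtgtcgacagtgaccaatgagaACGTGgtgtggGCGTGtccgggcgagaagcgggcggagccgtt
Scn2b: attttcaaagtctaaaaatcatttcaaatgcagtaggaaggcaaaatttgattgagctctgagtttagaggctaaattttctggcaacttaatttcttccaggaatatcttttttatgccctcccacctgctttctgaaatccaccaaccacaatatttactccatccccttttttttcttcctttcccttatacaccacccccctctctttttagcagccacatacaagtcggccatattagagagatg
The printed stretches hold 3 matches in Slc9a3, 4 in Trpm7, 3 in Slc25a30 and 0 in Scn2b. Slc9a3 averaged higher in overexpression, and Trpm7 and Slc25a30 averaged lower, with values given below under their substrates.

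Transport genes stood mostly on the lower side. Of the 37, 24 (64.9%) averaged lower in overexpression than in flox and 13 higher, whereas 428 of the 923 listed genes (46.4%) and 301 of the 656 protein-coding ones (45.9%) averaged lower. The 4 genes set aside by the rule are counted among the listed genes but not among the 37. The carriers of amino acids and peptides, the mitochondrial carriers, the water channels and the TRP channels made up most of the lower side. Carriers of nucleosides and nucleobases, the ATP synthase subunits and 3 of 4 zinc carriers averaged higher. The median log2 fold change (overexpression against flox, edgeR) was -0.33 over the 35 transport genes tested and 0.34 over all 767 listed genes tested. The median absolute value was 0.54 for the transport genes and 0.73 for the listed genes. Scaling the libraries by TMM over the listed genes moved the median of all listed genes by -0.14. With it 22 of the 35 genes averaged lower and 13 higher, as before. A downward shift does not test the direction of genes that already averaged lower.

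None of the 35 genes passed the edgeR quasi-likelihood test after Benjamini-Hochberg adjustment over the 19204 genes the authors tested (threshold 0.05). DESeq2 and limma on the same table called 0 as well. The background was small: 21 of the 767 listed genes passed (2.74%), 20 of them higher (2.61%) and 1 lower (0.13%). At an unadjusted edgeR p under 0.05 there were 22 of the 35 genes (62.9%), 8 higher and 14 lower, against 82.7% of all listed genes tested, 45.2% higher and 37.4% lower. The 3 overexpression values lay wholly above or wholly below the 3 flox values in 23 of the 35 genes (65.7%), 8 higher and 15 lower, against 75.9% of the listed genes, 40.9% higher and 34.9% lower. Adjusted over the 767 listed genes alone, 11 of the 35 passed (4 higher, 7 lower), against 41.6% of the listed genes, an adjustment within genes already selected by p. The smallest adjusted p belonged to Scn2b (0.933, edgeR), and the adjusted p of the other 34 tested transport genes was 1. Kcne2 and Trpv1 fell below the filter on low counts and were not in this test. Words such as higher and lower therefore describe the mean of 3 mice, and an exact permutation test of 3 against 3 could not give a p below 0.1.

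**Figure D1:**
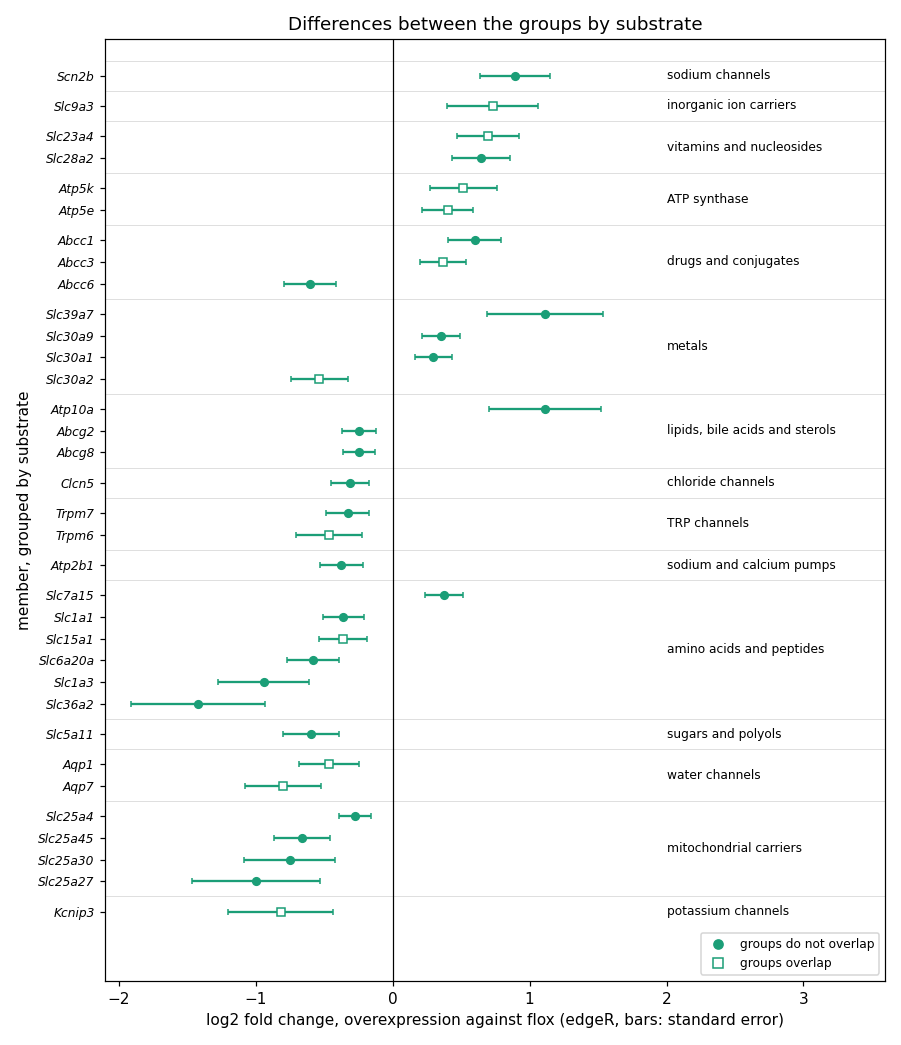
Log2 fold change of 34 of the 35 tested genes (overexpression against flox, edgeR), with bars for the standard error, grouped by substrate and ordered by the median of the group. Filled circles mark the 23 genes whose groups did not overlap and white squares the 11 whose groups did; values run from -1.42 for Slc36a2 to 1.11 for Slc39a7, and the mitochondrial carriers sit on the lower side together.

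Levels spanned more than 2 orders of magnitude on the FPKM scale, which corrects for gene length. The highest were Slc15a1, the PEPT1 carrier of di- and tripeptides, with 78.7 ± 17.4 FPKM in flox (SD, n = 3), Aqp1 with 68.5 ± 15.9, Slc25a4 with 57.4 ± 1.84 and Atp5e with 55.1 ± 11.5. Neighbours in this order lay closer than their spread. The lowest of the tested genes were Atp10a with 0.413 ± 0.159 FPKM and Slc1a3 with 0.505 ± 0.0747. Summed over all 37 genes, FPKM ran from 515 to 610.2 in flox and from 519 to 527 in overexpression, so the groups overlapped. Of 51 absorptive and secretory transporters of the ileum listed from general knowledge, 10 were among these genes: Slc15a1, Slc6a20a, Slc1a1, Slc28a2, Slc9a3, Slc30a1, Atp2b1, Abcc3, Abcg2 and Abcg8. In 2 of these the overexpression values were all higher and in 5 all lower, a share near the 75.9% of listed genes with separated groups.

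**Figure D2:**
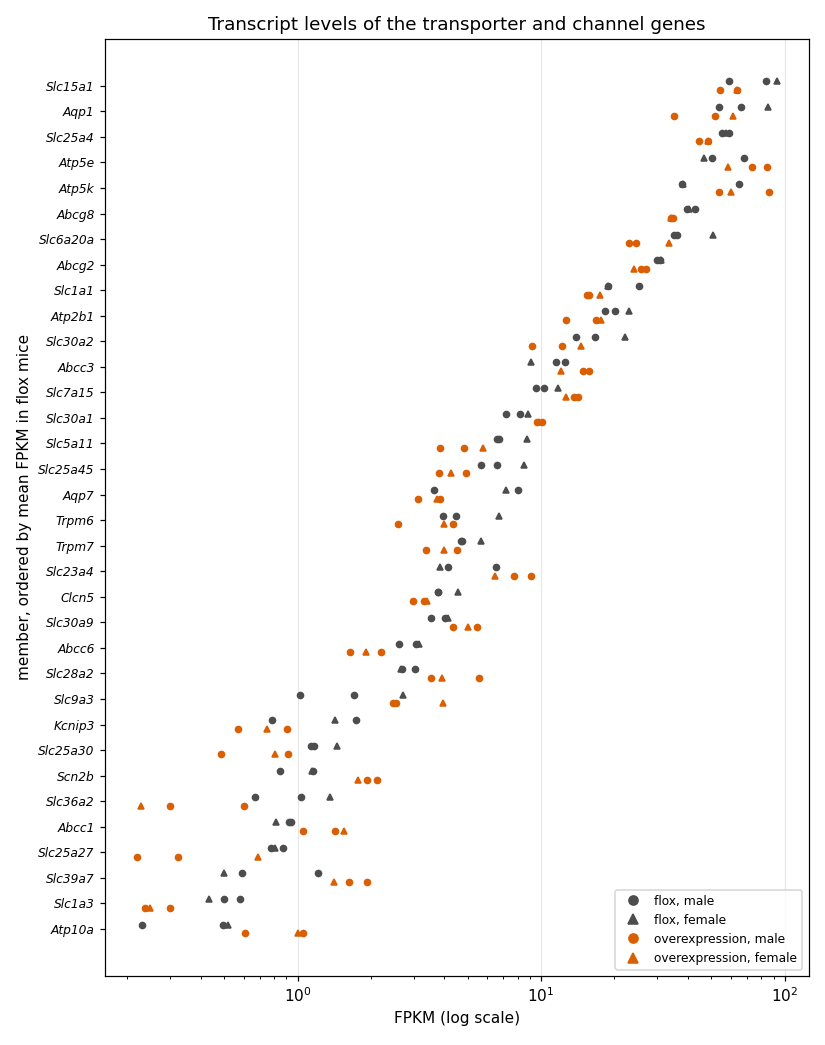
Transcript level of 34 of the 35 tested genes in every mouse, in FPKM on a log axis, ordered by the flox mean. Grey marks are flox and orange marks overexpression, circles males and triangles females; flox means run from 0.413 FPKM for Atp10a to 78.7 FPKM for Slc15a1.

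Carriers of amino acids and peptides were the largest group. Of 6 genes, 5 averaged lower in overexpression and 1 higher, and the groups did not overlap for 4 of the lower genes and for the higher one, where 75.9% of the listed genes tested did not overlap either. None passed the test. Their summed level was 124, 157 and 176 FPKM in flox and 107, 119 and 128 in overexpression, so the groups overlapped by 1 mouse.

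Slc6a20a (ENSMUSG00000036814, chr9:123634770-123678885, minus strand, GRCm38) encodes a sodium-coupled carrier of proline and other imino acids of the brush border. It had 3203, 3242 and 4537 normalized counts in flox and 2078, 2224 and 3017 in overexpression. The highest overexpression value, that of the female, lay below the lowest flox value, and the female was the highest of each group. The log2 fold change was -0.59 ± 0.19 (SE), between -0.77 and -0.40 when each library was left out in turn. The related gene Slc6a20b shares 5.27% of the 150-base windows of Slc6a20a, and 13.8% of its exonic bases lie opposite the antisense gene Gm17120, so some reads may belong to either.

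Slc15a1 (ENSMUSG00000025557, chr14:121459621-121505252, minus strand) had 6429, 8995 and 9904 normalized counts in flox and 5906, 6931 and 6846 in overexpression. Flox replicate 1 lay among the overexpression mice, so the groups overlapped although their means were 8442 ± 1802 and 6561 ± 569 (SD, n = 3). The log2 fold change was -0.36 ± 0.17.

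Both glutamate carriers listed averaged lower. Slc1a1, the neuronal and epithelial type, had 2584, 3411 and 2538 normalized counts in flox and 2116, 2157 and 2364 in overexpression, a log2 fold change of -0.36 ± 0.15. Slc1a3, best known from glia, was low, at 110.4, 93.1 and 80.9 against 44.9, 56.4 and 46.6, with -0.94 ± 0.33. Neither pair of groups overlapped. Of the exonic bases of Slc1a1, 31.9% lie opposite the gene 4430402I18Rik, and no source says whether counting used strand.

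Slc36a2, a proton-coupled carrier of small neutral amino acids, had the lowest fold change of all tested transport genes. Its counts were 48.3, 73.8 and 96.9 in flox and 21.5, 43.6 and 16.3 in overexpression after normalization. The gap between the groups was narrow, from 43.6 to 48.3, and the log2 fold change was -1.42 ± 0.49. It ran from -1.94 to -1.17 when single libraries were left out, and was -0.91 with males only. The female was the highest of the flox mice and the lowest of the overexpression mice. Slc7a15, a member of the Slc7 amino acid carrier family, was the exception in direction, with 633, 670.3 and 769.7 normalized counts in flox and 906, 941 and 837 in overexpression. Its groups did not overlap, and the log2 fold change was 0.37 ± 0.14.

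**Figure D3:**
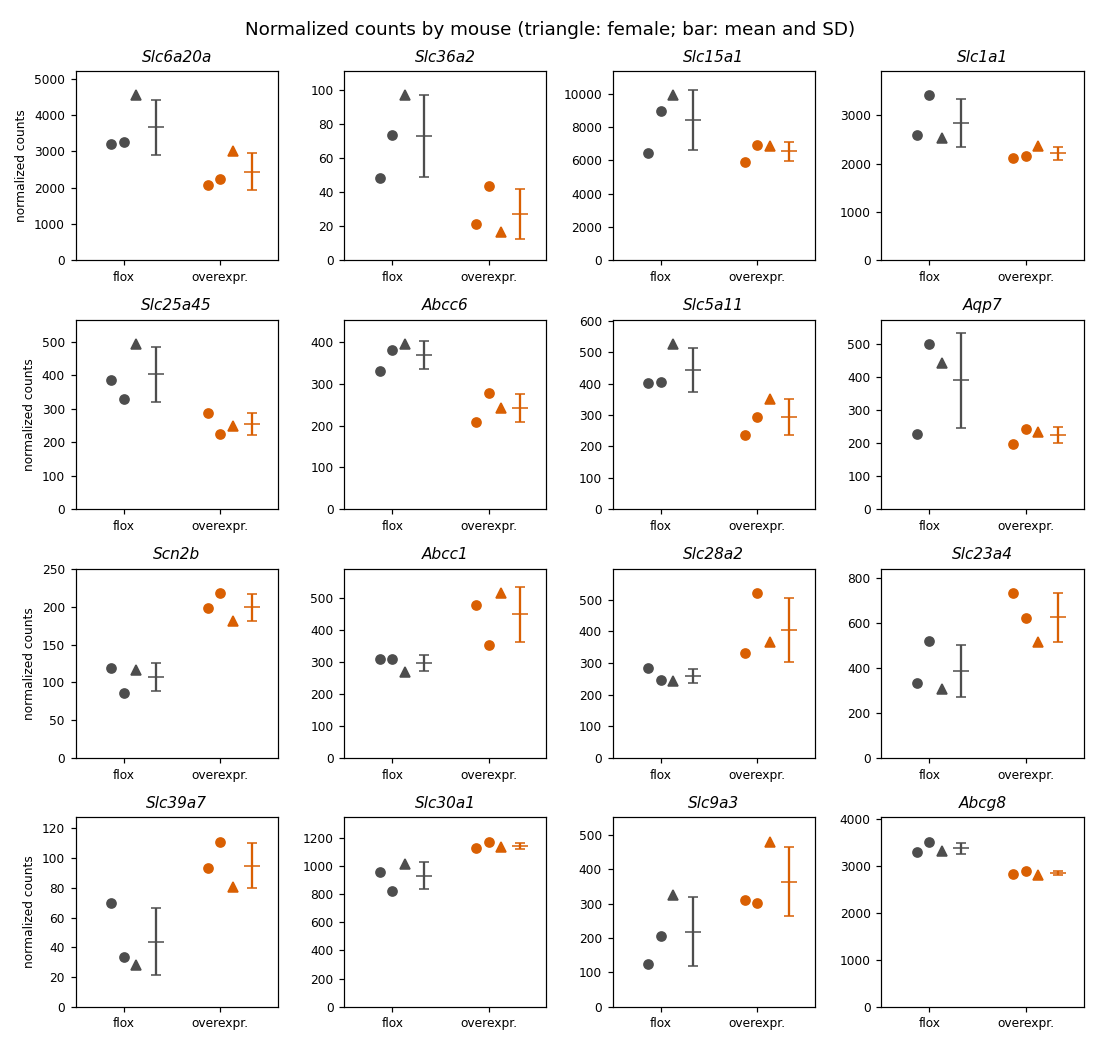
Normalized counts of 16 of the transport genes in each mouse, with the group mean and SD as a bar and females as triangles; each panel has its own axis starting at 0. Slc6a20a, Slc36a2, Slc1a1, Slc25a45, Abcc6, Slc5a11 and Abcg8 lie lower in all 3 overexpression mice, Scn2b, Abcc1, Slc28a2, Slc39a7 and Slc30a1 lie higher in all 3, and the groups of Slc15a1, Aqp7, Slc23a4 and Slc9a3 overlap.

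The mitochondrial carriers move metabolites across the inner membrane. All 4 listed genes averaged lower in overexpression and none of their groups overlapped, beside 34.9% of the listed genes tested that were separated in this direction, and none passed the test. Their summed level was 64.1, 66.7 and 68.3 FPKM in flox and 54.4, 49.0 and 54.2 in overexpression, most of it from Slc25a4.

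Slc25a4, the ADP/ATP carrier of muscle and other tissues, had 2901, 3045 and 2963 normalized counts in flox and 2520.4, 2320.2 and 2513 in overexpression. The spread within each group was small, which selection by p favours for a small difference, and the log2 fold change was -0.28 ± 0.12. Slc25a45, a carrier of the same family, had 388, 329 and 493 against 289, 224 and 249, with -0.67 ± 0.21. An unadjusted edgeR p under 0.05 was kept by Slc25a45 in all 6 fits with 1 library left out. Slc25a4 kept it in 0 of 6. These genes had been selected by p in the same contrast, so keeping it is no independent evidence. Slc25a30 was counted at 118, 113 and 145 in flox and 92.6, 49.0 and 81.6 in overexpression (normalized; -0.75 ± 0.33). Slc25a27, an uncoupling protein relative best known from brain, was the least even, at 75.9, 66.8 and 69.6 against 28.1, 19.2 and 59.4, with means of 70.8 ± 4.68 and 35.6 ± 21.2 (SD, n = 3). The female was the highest of the overexpression mice, and without this mouse the log2 fold change was -1.58.

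Both ATP synthase subunits lay on the other side. Atp5e and Atp5k, the epsilon and e subunits, summed to 102 ± 26.8 FPKM in flox and 139 ± 27.9 in overexpression (SD, n = 3). Atp5e had 1969, 2621 and 1789.7 normalized counts in flox and 3297, 2864 and 2265 in overexpression, and Atp5k 518, 873 and 518 against 1177, 736 and 815. In both genes flox replicate 2 lay above at least 1 overexpression mouse, so the groups overlapped. The log2 fold changes were 0.40 ± 0.19 and 0.52 ± 0.25.

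Carriers of nucleosides and nucleobases averaged higher. Slc28a2, the concentrative purine-nucleoside carrier, had 284, 248 and 244 normalized counts in flox and 330.1, 520.4 and 365 in overexpression, without overlap. The log2 fold change was 0.65 ± 0.21, and 9.83% of its 150-base windows are shared with the gene Gm14085. Slc23a4, known in rat as a sodium-dependent nucleobase carrier, had 333, 518 and 306 against 732, 624 and 518. Flox replicate 2 and the overexpression female had nearly the same value, and the log2 fold change was 0.69 ± 0.22. The summed level of both genes was 7.17, 9.22 and 6.49 FPKM in flox and 12.6, 13.3 and 10.4 in overexpression, without overlap.

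Slc5a11 was the single sugar or polyol carrier among the 37 genes, a sodium-coupled carrier of myo-inositol (chr7:123214780-123273253, plus strand). The sugar carriers Slc2a1 and Slc2a5 were also listed but had been set aside by the rule. Normalized counts were 402, 406 and 526 in flox and 236, 295 and 351 in overexpression. All 3 overexpression mice lay lower, the female was again the highest of each group, and the log2 fold change was -0.60 ± 0.20.

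Exporters of drugs and conjugates went both ways. Abcc1, which exports glutathione conjugates and leukotrienes, had 311, 311 and 268 normalized counts in flox and 479, 352 and 515 in overexpression, without overlap (log2 fold change 0.60 ± 0.19). Abcc6, the gene mutated in pseudoxanthoma elasticum, had 330.3, 382 and 395 against 209, 278 and 241, also without overlap (-0.61 ± 0.19). Both kept an unadjusted edgeR p under 0.05 in all 6 fits with 1 library left out. They had been selected by p in the same contrast, so this is no independent evidence. Abcc3, the basolateral exporter of organic anions, was the most abundant of the 3 at 11.1 ± 1.79 FPKM in flox and 14.2 ± 1.91 in overexpression (SD, n = 3). It had 1593, 1437 and 1134 normalized counts against 1983, 1879 and 1513, and its groups overlapped.

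The apical exporters Abcg2, which carries drugs and urate, and Abcg8, which with Abcg5 exports plant sterols and cholesterol, showed small differences with tight replicates. Selection by p favours tight replicates where the difference is small, so the tightness cannot be read as a trait of these genes. Abcg8 (chr17:84676302-84700333, plus strand) had 3305, 3509.8 and 3313 normalized counts in flox and 2832, 2897 and 2809 in overexpression. Abcg2 had 5558, 5328 and 5569 against 4657, 4885 and 4336. Every overexpression mouse lay below every flox mouse in both genes, and both log2 fold changes were -0.25 ± 0.12. Abcg5 and Abcg8 are divergent neighbours, and 2.19% of the exonic bases of Abcg8 lie opposite Abcg5, which was not listed. Atp10a, a flippase of membrane phospholipids, was low and averaged higher, with 61.1, 28.1 and 63.0 normalized counts in flox and 130.0, 75.6 and 124 in overexpression (1.11 ± 0.41). Summed over these 3 genes, levels were 71.9 ± 1.03 FPKM in flox and 60.8 ± 1.70 in overexpression (SD, n = 3).

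Of the metal carriers all 4 move zinc. Slc30a1 exports zinc across the plasma membrane and had 956, 825 and 1012 normalized counts in flox and 1124, 1169 and 1134 in overexpression. Slc30a9, a mitochondrial zinc carrier, had 971, 1095 and 1119.7 against 1197, 1497 and 1367. The groups of both genes did not overlap, with log2 fold changes of 0.30 ± 0.13 and 0.35 ± 0.14. Slc39a7 releases zinc from the endoplasmic reticulum and had 70.0, 33.4 and 28.2 against 93.5, 111 and 80.4, a log2 fold change of 1.11 ± 0.42. This value is uncertain, because 80.7% of the exonic bases of Slc39a7 overlap Gm20427 on the same strand and 65.7% of its 150-base windows are shared with it. Slc30a2, which loads zinc into vesicles, averaged lower, at 1099, 1302 and 1722 against 729, 963 and 1149. Its groups overlapped between flox replicate 1 and the overexpression female (-0.54 ± 0.21). Because the most abundant of the 4 stood on the lower side, their summed level was close in the groups, at 30.3 ± 4.61 and 28.4 ± 3.17 FPKM (SD, n = 3).

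**Figure D4:**
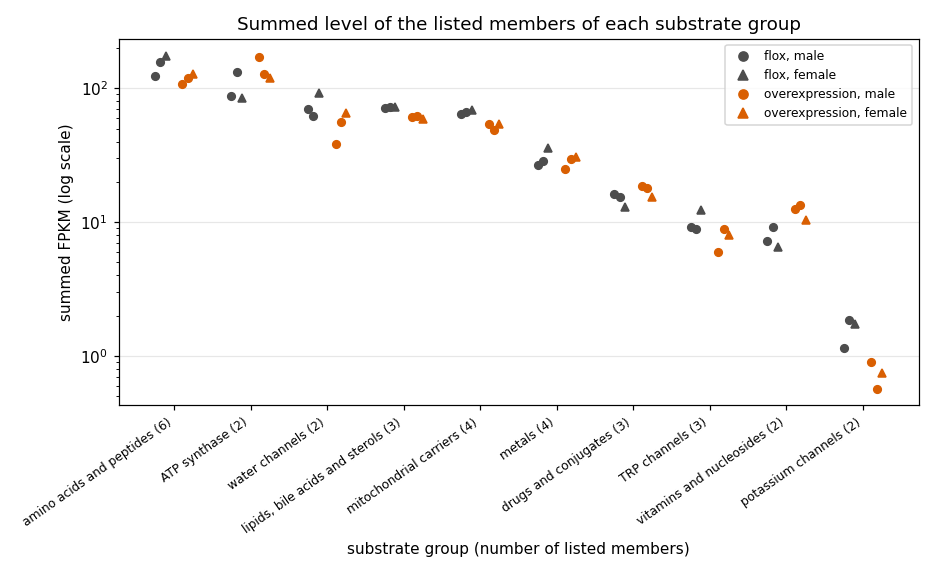
Summed FPKM of the listed genes of 10 substrate groups with at least 2 genes, on a log axis, for every mouse; grey is flox, orange overexpression, triangles females, and the number of genes is in brackets. Sums do not overlap between flox and overexpression for lipids and sterols, mitochondrial carriers, potassium channels, and vitamins and nucleosides. They overlap for amino acids and peptides, ATP synthase, water channels, metals, drugs and conjugates, and TRP channels. Groups follow gene family, so Abcg2 is under lipids and sterols, and the vitamin and nucleoside group holds only Slc28a2 and Slc23a4.

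Slc9a3, the sodium-proton exchanger NHE3 through which the gut absorbs sodium, was the only carrier of inorganic ions listed. It had 125, 205 and 326 normalized counts in flox and 309.6, 301 and 479 in overexpression. The female was the highest of each group, and the flox female lay above both overexpression males. The log2 fold change was 0.73 ± 0.33, and it ran from 0.45 to 1.14 when single libraries were left out.

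Atp2b1, the plasma membrane calcium pump, averaged lower. It had 6815, 6102 and 7631 normalized counts in flox and 4285, 5679 and 5883 in overexpression, without overlap (-0.37 ± 0.16).

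Scn2b, a β subunit of voltage-gated sodium channels (ENSMUSG00000070304, chr9:45117782-45130070, plus strand), had the smallest edgeR p of the transport genes. Normalized counts were 119, 86.1 and 117 in flox and 198, 218 and 182 in overexpression, with means of 107 ± 18.5 and 199 ± 18.2 (SD, n = 3). The lowest overexpression mouse lay well above the highest flox mouse. The log2 fold change was 0.89 ± 0.25, between 0.76 and 0.98 when each library was left out. An unadjusted edgeR p under 0.05 was kept in all 6 of those fits. Scn2b had been selected by p in the same contrast, so this is no independent evidence. The level was low, at 1.05 ± 0.175 and 1.93 ± 0.172 FPKM. Acta1 of skeletal muscle was higher in the same mice, and its part in this result was not tested.

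Potassium channel partners averaged lower at low counts. Kcne2, a β subunit of potassium channels, had 31 counts over the 3 flox libraries and 0 over the 3 overexpression libraries. Taking the flox counts as measured and a floor of 3 counts over the overexpression group, it was at least 9.21-fold lower. Without flox replicate 1, 17 flox counts remained, and the bound is then smaller. In the fit without a filter on low counts Kcne2 did not pass (adjusted p = 0.946, edgeR). Normalized, flox mice had 13.8, 4.39 and 11.3. Kcnip3, a calcium-binding partner of Kv4 channels, had 62.1, 134 and 111 normalized counts in flox and 71.1, 44.7 and 58.3 in overexpression, with overlap (-0.82 ± 0.39).

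Clcn5, the chloride-proton exchanger of endosomes, had 956, 946 and 1139.5 normalized counts in flox and 756, 837 and 856 in overexpression, without overlap (-0.31 ± 0.14). The magnesium-permeable channel kinases Trpm6 and Trpm7 both averaged lower. Trpm7 had 1187, 1161 and 1396 against 843, 1137 and 999, and its groups were separated by a narrow gap (-0.33 ± 0.15). Trpm6 had 646, 565 and 959 against 373, 627 and 571, with overlap (-0.47 ± 0.24). Trpv1, the capsaicin receptor of sensory neurons, had 22 counts in flox, of which flox replicate 2 held all but 3, and 0 in overexpression. It was at least 6.54-fold lower against the floor of 3 counts over the group, but without flox replicate 2 the 3 remaining counts are at that floor and no fold can be given.

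Both water channels averaged lower, with overlapping groups. Aqp1, a water channel of endothelium and red cells, had 3866, 3099 and 4911 normalized counts in flox and 2048, 3011 and 3539 in overexpression. The log2 fold change was -0.47 ± 0.22. Aqp7, which also passes glycerol, had 228, 499 and 443 against 196, 242 and 232, where flox replicate 1 lay among the overexpression mice (-0.81 ± 0.28). Beside these, the red cell gene Alas2 averaged lower in overexpression (53.4 ± 26.4 against 17.7 ± 10.1 normalized counts) and the endothelial gene Kdr higher (476 ± 70.4 against 744 ± 224, SD, n = 3), with overlap in both. Their part in the levels of Aqp1 was not tested.

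Other genes of epithelial transport were looked up by name. Of 54 channels outside the named families, such as Cftr, Ano1 and the connexins, 0 were listed. Of 47 regulators and partners of transporters 4 were listed, and none passed the test. Car9, a membrane carbonic anhydrase and a known HIF target, had 1039 and 912 normalized counts in the flox males, 761 in the flox female, and 1537, 1551 and 1181 in overexpression (0.65 ± 0.17, adjusted p = 0.704, edgeR). Guca2b, the precursor of uroguanylin, which acts on salt and water secretion, had 7692, 8713 and 10154 against 6977, 6274 and 7054 (-0.39 ± 0.15). Anpep, the brush border aminopeptidase N, had 127405, 153611 and 131328 against 117315, 121630.0 and 111350.4 (-0.24 ± 0.17). Values of Car9 were higher, and those of Guca2b and Anpep lower, in all 3 overexpression mice. Wnk3, a kinase that regulates chloride cotransporters, was at 35.5, 0.879 and 5.65 in flox and at 0 in all 3 overexpression libraries.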

How the data were processed

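Ileum RNA of 3 flox and 3 overexpression mice was measured by RNA-seq. The authors aligned paired reads of 150 bases to GRCm38 with HISAT2 2.0.5 and counted fragments per gene; the deposited counts are whole numbers. A size factor for each library (0.858 to 1.14) turned them into the deposited normalized signal, called normalized counts here, and the authors also gave FPKM, per gene length and library total. The deposited log2 fold change and p-value columns hold the authors' own DESeq2 comparison and were not used, except to find that all 923 genes have an unadjusted p-value under 0.05 and that 19204 genes were tested. Whether counting used strand is not stated in the sources used here.

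Counts of the 767 listed genes averaging at least 5 normalized counts were fitted with edgeR 4.0.16 (quasi-likelihood test, R 4.3.3, deposited size factors, no covariate), with Benjamini-Hochberg adjustment over 19204 genes. This left out 2 of the 37 transport genes, Kcne2 and Trpv1. Alternatives were DESeq2 1.42.0, limma 3.58.1 on log2(normalized count + 1), TMM, other filters, sex, a replicate block, males only, adjustment over the listed genes and each library left out. Scripts were tested on simulated data. The standard error was derived from the edgeR test, as the absolute log2 fold change divided by the square root of the F statistic. With 3 mice per group the SD is over mice.

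Genes were named by rule: those passing the test, the 12 largest differences in each direction among genes with separated groups that averaged at least 50 normalized counts, and the most abundant gene of each substrate group with at least 2 genes. The other transport genes, among them Slc9a3, Aqp7, Atp5k, Trpm6 and Abcg2, fall outside this rule and were described by substrate, and 1 gene entered the fits and counts but is not reported here. Positions are as deposited; overlaps and shared 150-base windows come from GENCODE M21 on the same build. The genes, lists and tests were chosen with earlier results of these data known.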

Additional observations from a re-analysis of the deposited data

How the results depend on the processing

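Adjusted over the 19204 genes, 0 transport genes passed in any of 14 alternative settings, higher or lower, leaving out each library included (lowest and highest count 0). Adjusted over the listed genes alone, 4 passed higher (Scn2b, Slc23a4, Slc28a2 and Abcc1) and 7 lower (Slc6a20a, Slc25a45, Aqp7, Abcc6, Slc36a2, Slc5a11 and Slc1a3), beside 41.6% of the listed genes tested; these genes were selected by p in the same contrast, so that adjustment is no independent evidence. None of the 29 named genes reversed its direction in 435 values (15 alternatives for each gene). Many of these values could not have reversed. Genes with separated groups keep their direction when a library is left out, and adjustment over the listed genes alone leaves the fold changes unchanged. Genes with separated groups numbered 23, and 23 to 29 with a library left out. Leaving out a library can add separated groups but not remove any, so this count could not fall. An unadjusted edgeR p under 0.05 was reached by 22 genes, by 8 to 19 with a library left out (8 without overexpression replicate 1) and by 10 with males only. Listed genes that passed numbered 21 in the fit reported, 73 by DESeq2, 39 with the replicate block, 1 with males only and 4 to 13 with a library left out. With the replicate block 0 transport genes passed. The deviations of same-numbered libraries from their group means, in log2(normalized count + 1), correlated at 0.06, 0.04 and 0.09 over the listed genes tested. Each library correlated best with its own number. Replicate 3 is the female of each group, and nothing in the labels says that numbers mark pairs. The standard error on the log2 scale ran from 0.12 for Abcg8 to 0.49 for Slc36a2, and the parts of counting error and of spread between mice in it were not tested.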

Other observations

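Each group held 2 males and 1 female, and with 1 female per group a difference between the sexes in the effect could not be judged. The female was the highest mouse of both groups in 7 of the 35 genes, among them Slc6a20a, Slc5a11 and Slc9a3, against 15.3% of the listed genes. The female was the lowest mouse of both groups in 4 of the 35, against 16.9% of the listed genes.

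In the GENCODE M21 annotation of GRCm38, 714 protein-coding genes have a symbol of the same families, of which 41 (5.74%) were listed, against 655 of 21951 protein-coding genes (2.98%). How many of either were expressed in the ileum is not known from the listed genes.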
